A study of Saccharomyces cerevisiae with 8 samples.

Results

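The unnamed open reading frames (ORFs) of budding yeast (Saccharomyces cerevisiae) that carry only a systematic name ending in a letter suffix, such as YMR230W-A, were examined on 8 expression arrays. A gene belonged to the set when its annotated symbol was nothing but such a suffixed name. The set held 142 of the 5449 genes tested, measured by 148 of 5814 probe sets, and each gene was represented by its brightest probe set. Cultures of dot1, swi4 and ard1 deletion mutants and of wt (wild type) were compared, with 2 arrays of biological replicates in each group. All cultures grew in YPD, a rich liquid medium, at 30 C until their OD600, a measure of cell density, was 0.7, and total RNA was hybridised to a 1-colour array. The labels give neither the strain background and its other alleles nor the number of clones behind each mutant. Dot1 is a histone H3 methyltransferase, Swi4 binds DNA for the cell cycle transcription factor SBF, and Ard1 is the catalytic subunit of the N-terminal acetyltransferase NatA.

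A suffixed name is given to an ORF that was recognised after its neighbours had been numbered. Such ORFs were passed over at first because they are short, and many were added later from sequence conservation, from transcript or protein evidence, or because they overlap a repeat. Most have no known product. Transposon ORFs carry suffixed names for a different reason. Ty elements are retrotransposons that move through an RNA copy, and each holds a Gag ORF for the capsid protein and a longer Gag-Pol ORF for the protease, integrase and reverse transcriptase.

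The word small held for most of the set only. In the gene table of the R64 assembly 123 of the 142 ORFs were at most 300 bp long and the median length was 183 bp, from 51 to 5410 bp. There were 12 ORFs longer than 800 bp, and all of these but YEL076C-A are Gag or Gag-Pol ORFs of Ty elements. Without them the longest was YKL033W-A at 711 bp. Of the 142 ORFs, 18 rested on probe sets whose names mark them as matching more than 1 transcript (shared probe sets), so near-identical copies may add to their values.

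Most members were dim. The mean log2 intensity over the 8 arrays had a median of 6.09 in the set and 9.33 over all genes, and 97 members (68.3%) lay in the dimmest 25% of genes. Brightness depends on the probes as well as on the transcript, so it does not rank transcript amounts. The brightest was YDR524C-B, with log2 intensities of 14.75 and 14.74 on the dot1 arrays, 14.68 and 14.71 on the swi4 arrays and 14.78 and 14.73 on the ard1 arrays, against 14.75 and 14.85 on the wt arrays. YCR024C-B averaged 13.24 and YKL033W-A 12.59 over the 8 arrays. None of these 3 was called in any comparison with wt. The dimmest was YOL166W-A, a shared probe set, at 3.99 and 3.97 on the dot1 arrays, 4.02 and 3.97 on the swi4 arrays and 4.08 and 4.07 on the ard1 arrays, against 4.05 and 4.03 on the wt arrays. YER175W-A averaged 4.03 and YGL188C-A 4.04. The dimmest member called against wt had a mean of 4.98, and 45 members lay below it. Of these, YFR012W-A (mean 4.73) and YNL162W-A (mean 4.37) were called between mutants.

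Each deleted gene fell in its own mutant (limma), with log2 changes of -3.31 ± 0.15 for DOT1, -0.91 ± 0.14 for SWI4 and -5.23 ± 0.18 for ARD1 (estimate ± standard error, SE). SWI4 was dim, at 4.21 and 4.22 on the swi4 arrays against 5.14 and 5.11 on the wt arrays. The lowest gene mean of the series was 4.02. All 5 alpha-type marker genes read between 11.85 and 14.20 on every array and the 7 a-type markers between 4.39 and 7.88. The replicates of wt and dot1 lay further apart than those of swi4 and ard1. Over the set, the SD of the difference between replicates was 0.29 in dot1, 0.15 in swi4, 0.22 in ard1 and 0.32 in wt. The array of wt replicate 2 had a higher median over all genes, 9.50 against 9.29 to 9.34 on the other 7. Among the suffixed ORFs it was the lower wt array for most, since only 48 of 142 were higher there than in wt replicate 1. In dot1, 24 of 142 were higher in replicate 2.

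Comparisons with wt asked which of these ORFs differed between each mutant and wt. Differences were tested with limma over all 5449 genes, and rose and fell are used of ORFs with a Benjamini-Hochberg adjusted p under 0.05. The fit held no term for the replicate number (a replicate block). Deviations of same-numbered arrays correlated at 0.35 to 0.75 over all genes. A block raised the number of suffixed ORFs called, as given in the closing section on processing, without the share of all genes called. Called members were nearly all lower in the mutant. In dot1 0 rose and 4 fell, in swi4 1 rose and 13 fell, and in ard1 0 rose and 25 fell. Among all genes, 1.12% rose and 1.34% fell in dot1, 5.16% rose and 7.01% fell in swi4, and 6.26% rose and 12.2% fell in ard1. The shares of the set that fell were 2.82%, 9.15% and 17.6% in the same order, and the share that rose in swi4 was 0.704%. At an unadjusted p under 0.05, dot1 had 4 members higher (2.82%, against 7.89% of all genes) and 19 lower (13.4% against 14.6%). By the same threshold swi4 had 10 higher (7.04% against 11.3%) and 24 lower (16.9% against 18.9%), and ard1 had 1 higher (0.704% against 11.6%) and 36 lower (25.4% against 20.7%). In ard1 50.7% of members had both arrays below both wt arrays, against 35.6% of all genes. The share was 26.1% against 26.8% in dot1 and 40.8% against 37.1% in swi4.

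**Figure D1:**
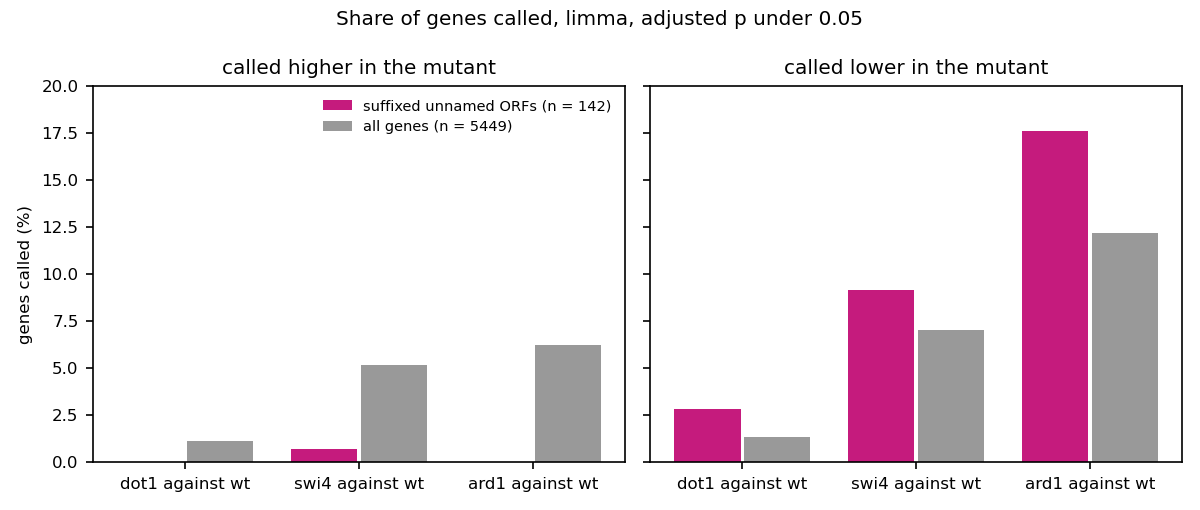
Percent of genes called higher (left) and lower (right) in each mutant against wt, for the 142 suffixed unnamed ORFs and for all 5449 genes (bars; limma, adjusted p under 0.05). The bars of the suffixed ORFs reach 17.6% for falls in ard1, against 12.2% of all genes, and stay at 0 for rises in dot1 and ard1.

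The split of calls depended somewhat on scaling. With each array centred on its median, dot1 had 1 rise and 4 falls, swi4 had 2 and 9, and ard1 had 1 and 20. After quantile normalization dot1 had 1 rise and 5 falls, swi4 had 2 and 9, and ard1 had 2 and 18. The shares of all genes called under these scalings are not given, so the counts cannot be set against them. For dot1, swi4 and ard1 in that order, the median change over the set was -0.03, -0.08 and -0.15, against -0.07, -0.10 and -0.07 over all genes. Centring moved these medians of the set to 0.05, 0.02 and -0.07, so that the sign turned in dot1 and swi4 and stayed in ard1. After quantile normalization they were 0.02, -0.01 and -0.06. Centring shifted the median of all genes by 0.10 in swi4.

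Of 107 genes that have a suffixed systematic name but also a standard name, 0 rose and 0 fell in dot1 (limma; 7 higher and 12 lower at an unadjusted p under 0.05), 5 rose and 7 fell in swi4, and 4 rose and 9 fell in ard1. Of 357 unnamed ORFs without a suffix, dot1 had 4 rises and 11 falls, swi4 had 24 and 24, and ard1 had 25 and 57. In ard1 16% of these unsuffixed ORFs fell, near the 17.6% of the suffixed set. The share was 8.41% of the 107 named genes and 12.2% of all genes. Both ard1 arrays lay below both wt arrays in 48.5% of the unsuffixed ORFs, near the 50.7% of the suffixed set. Rises in ard1 made up 7% of the unsuffixed ORFs and 0% of the suffixed set. Both comparison groups were brighter, with median log2 intensities of 9.87 and 8.5. Within the dimmest 25% of genes, 15.5% of the 97 suffixed ORFs fell in ard1, against 11.3% of all 1363 genes of that range, and 0% against 3.52% rose. Above it, 22.2% of 45 suffixed ORFs fell in ard1, against 12.5% of all 4086 genes, and 0% against 7.17% rose. Arrays of bulk cultures cannot tell fewer cells with a transcript from less of it per cell.

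**Figure D2:**
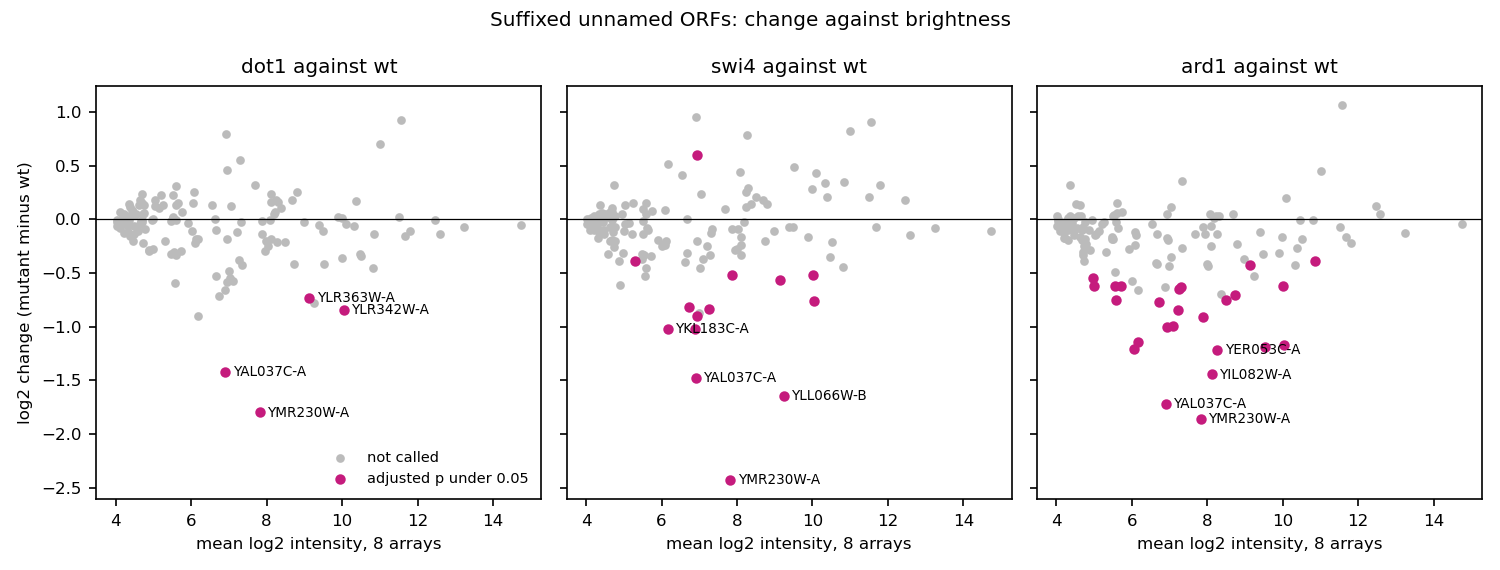
Log2 change of each of the 142 suffixed ORFs (mutant minus wt, vertical axis) against its mean log2 intensity over the 8 arrays (horizontal axis), with called ORFs in magenta and the others in grey. Called ORFs lie below 0 in the 3 panels, except 1 in swi4, and none has a mean below 4.98.

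Of the 4 suffixed ORFs that fell in dot1, YMR230W-A and YAL037C-A did so by at least 2-fold. That was 2 of the 142 members, against 14 of all 5449 genes. YMR230W-A is an ORF of 189 bp between the ribosomal protein gene RPS10B and the vacuolar sorting gene PEP5. It read 7.61 and 7.48 on the dot1 arrays, 6.81 and 7.01 on the swi4 arrays and 7.52 and 7.46 on the ard1 arrays, against 9.36 and 9.32 on the wt arrays. Each mutant array lay well below both wt arrays. It was 3.48-fold lower in dot1 (-1.80 ± 0.10, adjusted p = 0.00202), 5.39-fold lower in swi4 (-2.43 ± 0.10, adjusted p = 2.74e-04) and 3.62-fold lower in ard1 (-1.86 ± 0.10, adjusted p = 8.18e-04). Leaving out any 1 of the 4 arrays compared left it called in each mutant. The 3 comparisons share the wt arrays and are not independent of each other.

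YAL037C-A is an ORF of 93 bp beside the pyruvate kinase gene CDC19. It read 6.63 and 6.65 on the dot1 arrays, 6.51 and 6.66 on the swi4 arrays and 6.52 and 6.16 on the ard1 arrays, against 8.21 and 7.92 on the wt arrays. The mutant arrays again lay below both wt arrays. It was 2.68-fold lower in dot1 (-1.42 ± 0.15), 2.78-fold lower in swi4 (-1.47 ± 0.15) and 3.30-fold lower in ard1 (-1.72 ± 0.15), with limma adjusted p = 0.0158, 0.00439 and 0.00190. In dot1 the call was lost without dot1 replicate 1 (adjusted p = 0.0798) or dot1 replicate 2 (adjusted p = 0.0730), and in swi4 without swi4 replicate 1 (adjusted p = 0.0611).

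The other falls in dot1 were smaller. YLR342W-A, 174 bp long and beside the glucan synthase gene FKS1, read 9.91 and 9.87 on the dot1 arrays, 10.02 and 9.93 on the swi4 arrays and 9.77 and 9.36 on the ard1 arrays, against 10.77 and 10.69 on the wt arrays. Its log2 change was -0.84 ± 0.14 in dot1 (adjusted p = 0.0362), -0.76 ± 0.14 in swi4 (adjusted p = 0.0208) and -1.17 ± 0.14 in ard1 (adjusted p = 0.00415). YLR363W-A, 258 bp long and between NMD4, a gene of nonsense-mediated decay, and the glutaredoxin gene GRX8, read 8.83 and 8.82 on the dot1 arrays, 8.95 and 9.04 on the swi4 arrays and 9.13 and 9.14 on the ard1 arrays, against 9.45 and 9.67 on the wt arrays. The log2 changes were -0.74 ± 0.10 (dot1), -0.56 ± 0.10 (swi4) and -0.43 ± 0.10 (ard1). For both ORFs the wt arrays were the highest of the 8. In dot1 both calls were lost without dot1 replicate 1 (adjusted p = 0.128 and 0.103), dot1 replicate 2 (0.103 and 0.0827) or wt replicate 2 (0.115 and 0.0718). With dot1 and wt fitted alone 0 members were called (17 at an unadjusted p under 0.05). The share of all genes called in that fit is not given.

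The highest change in dot1 that was not called was that of YOR072W-B, an ORF of 162 bp, at 0.92 ± 0.55 (adjusted p = 0.379). It read 12.00 and 11.52 on the dot1 arrays, 11.59 and 11.90 on the swi4 arrays and 11.87 and 11.94 on the ard1 arrays, against 11.79 and 9.89 on the wt arrays. Its changes in swi4 and ard1, 0.90 and 1.07, were not called either. One array, wt replicate 2, lay far below the other 7, and the change in dot1 was -0.03 without it and 1.87 without wt replicate 1 (adjusted p = 0.0187). Its shared probe set was used. Its other probe set was dim, with means of 4.33 in dot1, 4.27 in swi4, 4.25 in ard1 and 4.25 in wt.

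In swi4, 13 suffixed ORFs fell and 1 rose. Of the 142 members, 5 fell by at least 2-fold, against 62 of all 5449 genes. Apart from YMR230W-A and YAL037C-A, the largest fall was that of YLL066W-B, a subtelomeric ORF of 171 bp between copies of the Y' helicase gene. It read 9.54 and 8.87 on the dot1 arrays, 8.45 and 8.23 on the swi4 arrays and 9.65 and 9.25 on the ard1 arrays, against 10.19 and 9.78 on the wt arrays. Both swi4 arrays lay below all other arrays, and its change in swi4 was -1.64 ± 0.26 (3.13-fold lower, adjusted p = 0.0136). Of its 3 probe sets, only those marked as shared were lower in swi4 than in wt. Beside the one used, the other shared one averaged 7.16 in swi4 against 8.46 in wt. The third, which is not so marked, averaged 7.0 in swi4 against 6.97 in wt.

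YKL183C-A, 213 bp long and beside the ornithine decarboxylase gene SPE1, read 6.11 and 5.72 on the dot1 arrays, 6.0 and 5.59 on the swi4 arrays and 6.29 and 6.02 on the ard1 arrays, against 6.88 and 6.75 on the wt arrays. Its fall in swi4 was by 1.02 ± 0.19 on the log2 scale (adjusted p = 0.0217). YDR182W-A, 204 bp long and beside CDC1, read 7.10 and 6.52 on the dot1 arrays, 6.52 and 6.38 on the swi4 arrays and 7.08 and 6.60 on the ard1 arrays, against 7.42 and 7.52 on the wt arrays, and fell by 1.02 ± 0.22 in swi4 (adjusted p = 0.0346). Both ORFs were lower than wt on all 6 mutant arrays and were called in swi4 alone. Neither was called between swi4 and another mutant (adjusted p between 0.247 and 0.911). YMR030W-A, 291 bp long and beside the cytokinesis gene HOF1, read 7.03 and 6.93 on the dot1 arrays, 6.69 and 6.65 on the swi4 arrays and 6.67 and 6.45 on the ard1 arrays, against 7.42 and 7.71 on the wt arrays. It fell by 0.90 ± 0.13 in swi4 (adjusted p = 0.0104) and by 1.00 ± 0.13 in ard1 (adjusted p = 0.00501).

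The remaining falls in swi4 were those of YBR196C-A (-0.83 ± 0.18), YOL038C-A (-0.82 ± 0.17), YLR342W-A, YLR363W-A, YGL041C-B (-0.52 ± 0.13), YLR285C-A (-0.52 ± 0.10) and YHR022C-A (-0.39 ± 0.10), with adjusted p between 0.02 and 0.0491. The single rise was that of YBL100W-A, the Gag ORF of a Ty2 element, which is described with the other Ty ORFs. Calls in swi4 rested on both of its arrays. Without swi4 replicate 1 only YMR230W-A of the 14 stayed called, without swi4 replicate 2 only 2 did, without wt replicate 2 there were 5, and without wt replicate 1 there were 12.

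In ard1, 25 suffixed ORFs fell and none rose (limma). At an unadjusted p under 0.05, 1 was higher (0.704% against 11.6% of all genes). Of the 142 members, 9 fell by at least 2-fold, against 103 of all 5449 genes. Besides YMR230W-A, YAL037C-A, YLR342W-A and YMR030W-A, these 9 were the Ty3 ORFs YIL082W-A and YGR109W-B and the short ORFs YER053C-A, YCL021W-A and YAL063C-A. YCL021W-A, 378 bp long and beside YCL020W, a Gag ORF of a Ty2 element, read 9.39 and 9.38 on the dot1 arrays, 10.41 and 10.17 on the swi4 arrays and 8.84 and 8.39 on the ard1 arrays, against 9.78 and 9.83 on the wt arrays. Its ard1 arrays were the lowest of the 8 and its swi4 arrays the highest, and it was 2.28-fold lower in ard1 (-1.19 ± 0.16, adjusted p = 0.00543).

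YAL063C-A, 291 bp long and beside the flocculin gene FLO9, read 6.45 and 5.94 on the dot1 arrays, 7.10 and 6.68 on the swi4 arrays and 5.25 and 5.23 on the ard1 arrays, against 6.55 and 6.21 on the wt arrays. Its ard1 arrays lay below all others, at a change of -1.14 ± 0.22 (2.21-fold lower, adjusted p = 0.0161). YER053C-A, 114 bp long and between the mitochondrial carrier gene PIC2 and GIP2, read 8.06 and 8.36 on the dot1 arrays, 8.99 and 9.42 on the swi4 arrays and 6.76 and 7.66 on the ard1 arrays, against 8.27 and 8.58 on the wt arrays. Its change in ard1 was -1.21 ± 0.31 (adjusted p = 0.0381), and it was -0.76 without ard1 replicate 1 (adjusted p = 0.143). That call was also lost without wt replicate 1 (adjusted p = 0.0577) or wt replicate 2 (adjusted p = 0.106).

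The other falls in ard1 were between 0.39 and 1.00 on the log2 scale. YOL155W-A read 7.26 and 6.75 on the dot1 arrays, 7.27 and 7.15 on the swi4 arrays and 6.74 and 6.43 on the ard1 arrays, against 7.58 and 7.58 on the wt arrays, a change in ard1 of -1.0 ± 0.18 (adjusted p = 0.0145). YPL119C-A read 8.33 and 7.89 on the dot1 arrays, 8.22 and 7.85 on the swi4 arrays and 7.20 and 7.23 on the ard1 arrays, against 8.27 and 8.0 on the wt arrays, a change in ard1 of -0.91 ± 0.19 (adjusted p = 0.0206). For both, the ard1 arrays were the lowest of the 8. Smaller were YOL159C-A (-0.84 ± 0.23), YOL038C-A (-0.77 ± 0.17), YOR293C-A (-0.75 ± 0.15), YOR192C-C (-0.70 ± 0.12), YBR196C-A (-0.65 ± 0.18) and YIL014C-A (-0.63 ± 0.10). YLR285C-A, YJL136W-A, YNR075C-A, YGR174W-A, YBR298C-A and YLR363W-A changed by -0.63, -0.62, -0.62, -0.62, -0.55 and -0.43 there, and the largest adjusted p of these 12 ORFs was 0.0476. YGR174W-A was dim and rested on a shared probe set, with means of 4.56 in ard1 and 5.18 in wt. Its other probe set changed by only -0.18 in ard1.

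Of the 25 calls in ard1, 6 held when any 1 of the 4 arrays compared was left out, those of YMR230W-A, YAL037C-A, YLR342W-A, YGR109W-B, YCL021W-A and YMR030W-A. Without ard1 replicate 1 there were 9 of the 25 left, without ard1 replicate 2 there were 8, without wt replicate 1 there were 15 and without wt replicate 2 there were 17.

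**Figure D3:**
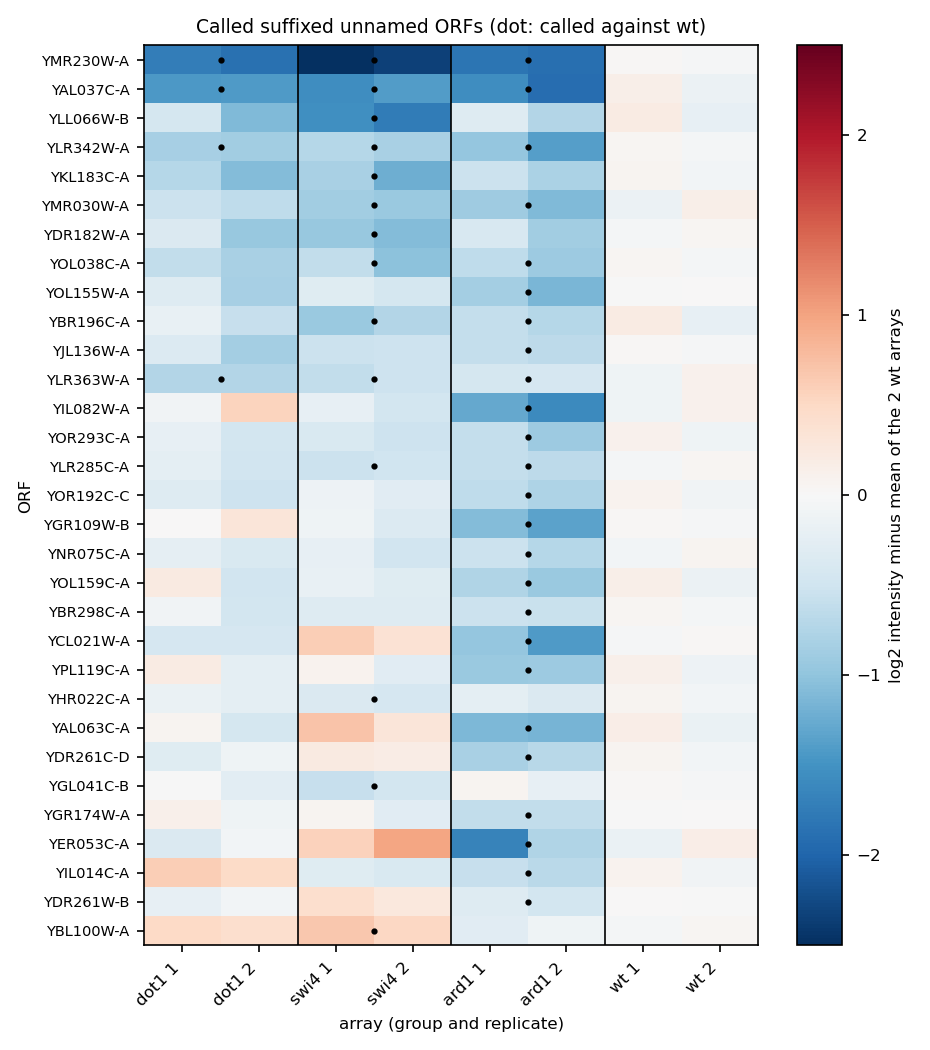
Log2 intensity of the 31 suffixed ORFs called in any mutant (rows) on each array (columns, by group and replicate), as the difference from the mean of the 2 wt arrays in colour. A black dot between the 2 arrays of a mutant marks a call against wt. The rows of YMR230W-A and YAL037C-A are blue in all 6 mutant arrays, while those of YCL021W-A and YAL063C-A are red in swi4 and blue in ard1.

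Of the 12 ORFs longer than 800 bp, 0 were called in dot1 (limma, 2 at an unadjusted p under 0.05), 1 rose in swi4 and 4 fell in ard1. In dot1 1.12% of all genes rose and 1.34% fell. The rise in swi4 was 8.33% of the 12, against 5.16% of all genes. The falls in ard1 were 33.3%, against 12.2% of all genes. The median change of these 12 was 0.04 (dot1), 0.17 (swi4) and -0.33 (ard1), against -0.03, -0.09 and -0.14 over the 130 shorter ORFs. The Ty3 ORFs YIL082W-A and YGR109W-B fell furthest. YIL082W-A read 8.40 and 9.07 on the dot1 arrays, 8.30 and 8.03 on the swi4 arrays and 7.21 and 6.90 on the ard1 arrays, against 8.40 and 8.60 on the wt arrays, and was 2.72-fold lower in ard1 (-1.44 ± 0.23, adjusted p = 0.00967; 0.0795 without ard1 replicate 2). YGR109W-B, which does not use a shared probe set, read 6.38 and 6.68 on the dot1 arrays, 6.27 and 6.03 on the swi4 arrays and 5.30 and 5.05 on the ard1 arrays, against 6.40 and 6.36 on the wt arrays, and was 2.31-fold lower in ard1 (-1.21 ± 0.15, adjusted p = 0.00424). In both, the ard1 arrays lay below every other array. The Ty3 Gag ORF YGR109W-A, which overlaps YGR109W-B, changed by -0.42 in ard1 and was not called (adjusted p = 0.307).

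Transcription of Ty3 is known to be induced by mating pheromone. Of the 5 alpha-type markers measured here, dot1 had 0 falls (limma, changes from -0.12 to 0.02), swi4 had 1 and ard1 had 4, and the log2 of their summed level was 15.49 and 15.43 in ard1 against 15.95 and 16.01 in wt. None of the 7 a-type markers was called in any mutant. The part of these changes in the Ty3 values was not tested.

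Among the Ty1 and Ty2 ORFs, YDR261C-D read 8.38 and 8.57 on the dot1 arrays, 8.90 and 8.87 on the swi4 arrays and 7.87 and 7.99 on the ard1 arrays, against 8.75 and 8.61 on the wt arrays, and fell by 0.75 ± 0.11 in ard1 (adjusted p = 0.00604). YDR261W-B read 10.69 and 10.82 on the dot1 arrays, 11.30 and 11.16 on the swi4 arrays and 10.57 and 10.44 on the ard1 arrays, against 10.90 and 10.87 on the wt arrays, and fell by 0.39 ± 0.10 in ard1 (adjusted p = 0.0426). In both, the ard1 arrays were the lowest and the swi4 arrays the highest, and the call of YDR261W-B was lost whichever of its 4 arrays was left out. YBL100W-A read 7.23 and 7.16 on the dot1 arrays, 7.41 and 7.25 on the swi4 arrays and 6.45 and 6.63 on the ard1 arrays, against 6.68 and 6.79 on the wt arrays. It was 1.51-fold higher in swi4 (0.60 ± 0.11, adjusted p = 0.0206), a call lost without swi4 replicate 1 (adjusted p = 0.164) or swi4 replicate 2 (adjusted p = 0.0938) and at the threshold without wt replicate 2. These ORFs rest on shared probe sets, so each value may sum several copies of the element.

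**Figure D4:**
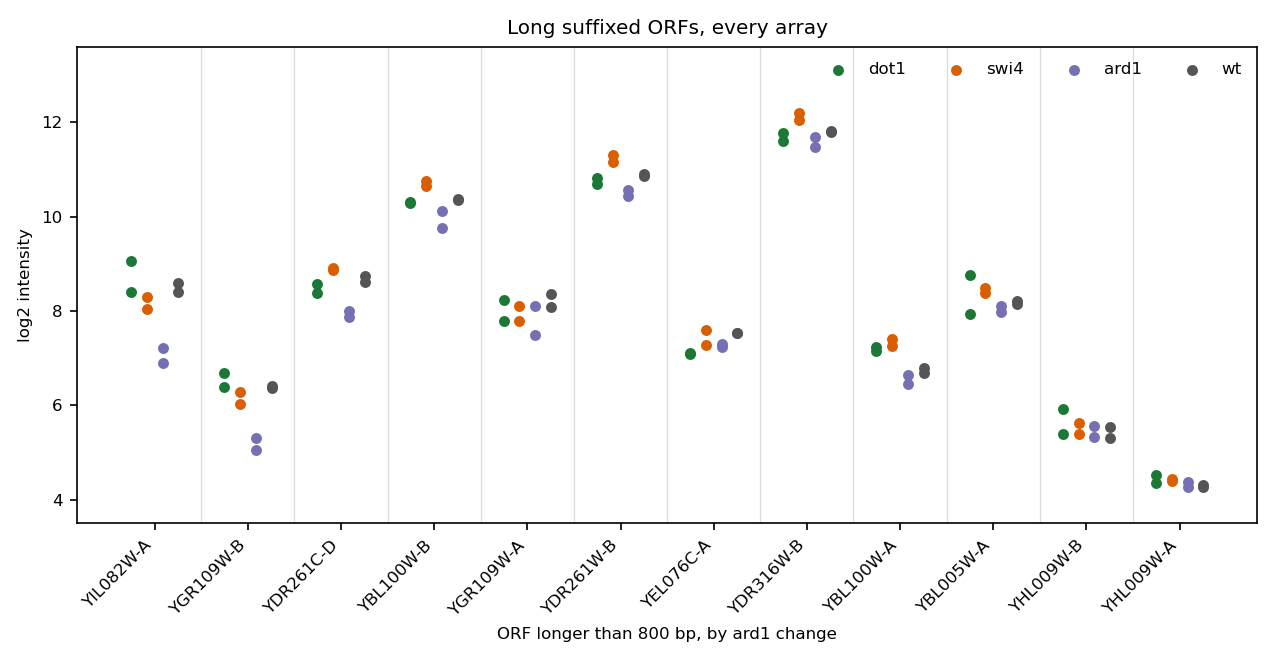
Log2 intensity of the 12 suffixed ORFs longer than 800 bp on each array (points, coloured by group), ordered by their change in ard1. The ard1 points of YIL082W-A (6.90 and 7.21) and YGR109W-B (5.05 and 5.30) lie below all others of those ORFs. For the Ty4 ORFs YHL009W-A and YHL009W-B the ard1 points overlap those of wt.

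Whether one mutant differs from another was tested directly, as a difference between their group means. Between swi4 and dot1, 0 were higher and 1 lower, against 0.367% and 0.642% of all genes (10 members, 7.04%, were higher and 8, 5.63%, lower at an unadjusted p under 0.05, against 5.71% and 6.02% of all genes). Between ard1 and dot1, 1 was higher and 10 were lower, against 5.67% and 8.44% of all genes. Between ard1 and swi4, 2 were higher and 14 lower, against 6.2% and 9.07% of all genes. The shares of the suffixed ORFs that were lower were 0.704%, 7.04% and 9.86%, so the falls were near the background and the rises below it. Of the 14 lower in ard1 than in swi4, 7 were among the 12 long ORFs, all of which had a negative difference, at a median of -0.63. All of the 12 but YGR109W-B rest on shared probe sets, and some overlap each other. They are therefore not 12 separate readings.

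The largest difference was that of YER053C-A, at -1.99 ± 0.31 between ard1 and swi4 (adjusted p = 0.00989), followed by YCL021W-A at -1.68 ± 0.16 (adjusted p = 0.00287), YAL063C-A at -1.65 ± 0.22 (adjusted p = 0.00602), YLL066W-B at 1.12 ± 0.26 (adjusted p = 0.0341) and YIL082W-A at -1.11 ± 0.23 (adjusted p = 0.0248). YMR230W-A was 1.49-fold higher in ard1 than in swi4 (0.57 ± 0.10, adjusted p = 0.0154). Only YCL021W-A was called whichever of the 4 arrays was left out, and without swi4 replicate 1 it was the single call left of 16. Without swi4 replicate 2, ard1 replicate 1 and ard1 replicate 2, 6, 6 and 4 of them were left.

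Against dot1, YIL014C-A stood out. It read 8.02 and 7.87 on the dot1 arrays, 7.10 and 7.02 on the swi4 arrays and 6.82 and 6.72 on the ard1 arrays, against 7.48 and 7.32 on the wt arrays. The dot1 arrays were the highest and the ard1 arrays the lowest, with no overlap between any groups. It was lower in swi4 than in dot1 by 0.89 ± 0.10 (difference -0.89, adjusted p = 0.0191) and in ard1 than in dot1 (-1.18 ± 0.10, adjusted p = 0.00298). The call between swi4 and dot1 was lost whichever of the 4 arrays was left out, while that between ard1 and dot1 was not. YIL082W-A (-1.68 ± 0.23), YGR109W-B (-1.36 ± 0.15), YAL063C-A (-0.96 ± 0.22) and YPL119C-A (-0.89 ± 0.19) were also lower in ard1 than in dot1. Of the 11 calls between ard1 and dot1, 3 were left without ard1 replicate 1, 2 without ard1 replicate 2, 4 without dot1 replicate 1 and 7 without dot1 replicate 2.

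A suffixed ORF often lies close to a longer gene, so neighbours in the R64 gene table were set beside the 16 ORFs that were called in at least 2 mutants or fell at least 2-fold in one. Of these, 14 had a measured neighbour. Neither neighbour of YMR230W-A changed with it. In dot1, swi4 and ard1 the change of RPS10B was 0.15 ± 0.10, 0.22 ± 0.10 and 0.06 ± 0.10, and that of PEP5 was 0.15, 0.20 and 0.16, none of them called. CDC19 beside YAL037C-A changed by -0.03, -0.05 and -0.08. RPP2A, a gene of the ribosomal stalk beside YOL038C-A, changed by between -0.03 and 0.02, and PGI1, the phosphoglucose isomerase gene beside YBR196C-A, by 0.01, -0.01 and -0.08. The other neighbours of these ORFs were lower in each mutant. In dot1, swi4 and ard1, YAL037W beside YAL037C-A changed by -0.19, -0.37 and -0.23. In the same order, PRE6 beside YOL038C-A changed by -0.17, -0.16 and -0.19, and YBR196C-B beside YBR196C-A by -0.22, -0.24 and -0.24. None of these neighbours was called either.

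For other ORFs a neighbour was called the same way. HOF1, on the strand of YMR030W-A, changed by -0.53 in dot1, where it was not called, and fell by 1.00 ± 0.21 in both swi4 (adjusted p = 0.0299) and ard1 (adjusted p = 0.0216). GAS2, a cell wall transglycosylase gene on the strand of YLR342W-A, fell by 0.81 ± 0.15 in swi4 (adjusted p = 0.0199) and in ard1 (adjusted p = 0.0134). PIC2 beside YER053C-A fell by 0.66 ± 0.13 in ard1 (adjusted p = 0.0187). NMD4, on the strand opposite to YLR363W-A, fell by 0.62 ± 0.10 in swi4 (adjusted p = 0.0158). The other neighbour of that ORF, GRX8, went the other way and rose by 1.40 ± 0.17 in swi4 (adjusted p = 0.00670). CLD1, the cardiolipin deacylase gene beside YGR109W-B, rose by 0.93 ± 0.10 in ard1 (adjusted p = 0.00309). CLD1 also rose in dot1 (0.61, adjusted p = 0.0331) and swi4 (0.76, adjusted p = 0.00767). There YGR109W-B changed by 0.15 and -0.23 and was not called. CAB2, on the strand opposite to YIL082W-A, rose by 0.38 ± 0.08 in ard1 (adjusted p = 0.0259).

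Over all suffixed ORFs, 133 had a measured neighbour. In ard1 22 of the 25 that were called had one, 7 with a neighbour called the same way and 3 with one called the other way. Of the 133, 49 had a neighbour called in either direction there. In swi4 13 of 14 had one, 4 the same way and 1 the other way, and 38 of the 133 had a neighbour called in either direction. In dot1 the 4 called ORFs had no called neighbour, against 9 of the 133. The counts over the 133 were not split by direction, so they give no share for neighbours called the same way. Whether probes of a suffixed ORF read the transcript of its neighbour was not tested.

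**Figure D5:**
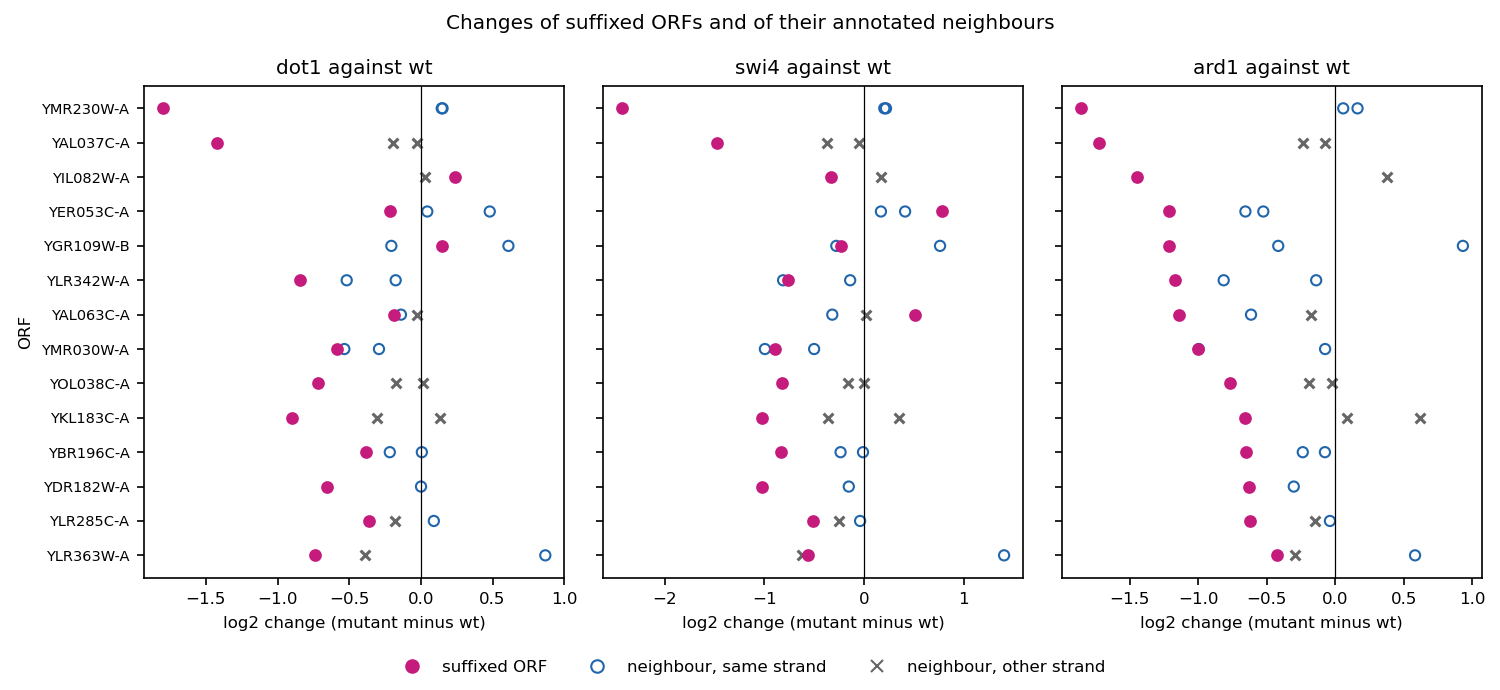
Log2 change (mutant minus wt) of 14 suffixed ORFs (magenta) and of their measured neighbours on the same strand (open blue circles) or the other strand (grey crosses). YMR230W-A lies at -1.80, -2.43 and -1.86 with its neighbours at 0.06 to 0.22, while HOF1 (-0.53, -1.0 and -1.0) lies beside YMR030W-A (-0.59, -0.90 and -1.0).

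The other 111 suffixed ORFs were called in no mutant against wt. Of the 31 that were called in any, 6 rested on shared probe sets. YLR154C-H, which lies in the ribosomal DNA region and was picked after its values were seen, read 11.24 and 11.20 on the dot1 arrays, 11.34 and 11.32 on the swi4 arrays and 11.31 and 10.62 on the ard1 arrays, against 11.36 and 9.67 on the wt arrays. As for YOR072W-B, wt replicate 2 was the lowest of the 8 arrays, and with all arrays in the fit the ORF was not called in any mutant.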

How the data were processed

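RNA from 4 groups of 2 biological replicates was hybridised to 8 arrays of 1 colour. The deposited values are intensities on a linear scale from RMA, per the submitters' processing notes. RMA as a method corrects background, normalizes quantiles between arrays and summarises probes. Its version is not given in the sources used here, and the scale was read from the values (15.24 to 35540). The number of arrays limits the precision. Array annotation gave 1 symbol to 5498 of 5814 probe sets, none to the others, and 12 symbols were updated through the R64 gene table, which also gave lengths and neighbours; its build may differ from that of the array, so no coordinates are given.

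From the deposited intensities log2 was taken and 1 limma 3.58.1 fit (R 4.3.3; 4 group means, 4 residual degrees of freedom plus 2.73 prior) gave 6 two-sided comparisons, with Benjamini-Hochberg adjustment over 5449 genes and calls at 0.05. The fit was tested on simulated data with independent noise on each array and changed genes in ard1 alone. That test does not cover deviations shared by same-numbered arrays. With 2 arrays against 2 an exact permutation test cannot go below 0.333. ORFs were named when called against wt, among the 3 brightest or dimmest, among the 3 largest changes of a comparison, or among the 5 largest calls of a mutant pair. The members, lists and rules were chosen with earlier results of these data known. Alternatives were the scaling, the samples fitted, the variance prior, a filter on dim genes, the probe set rule, symbols as the platform gives them, shared probe sets left out, a replicate block, and each array left out.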

Additional observations from a re-analysis of the deposited data

Results flagged for a closer look

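In 14 tests between mutants, covering 11 suffixed ORFs, a mutant lay above wt and another below it and the difference between them was called (limma, adjusted p under 0.05). Such opposite sides were not rare in general, since 22 of the 142 suffixed ORFs (15.5%) and 666 of all genes (12.2%) had 2 mutants with both arrays on opposite sides of both wt arrays, called or not. The share of all genes that also had a called difference is not given, so the 11 cannot be set against it. Groups of 2 arrays are too small to look for single outlying arrays.

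Between ard1 and swi4 the differences were -1.99 for YER053C-A, -1.68 for YCL021W-A and -1.65 for YAL063C-A. YER053C-A changed by -1.21 in ard1 and 0.78 in swi4 against wt, YCL021W-A by -1.19 and 0.49, and YAL063C-A by -1.14 and 0.51. The ard1 values were called against wt and the swi4 values were not.

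Of the Ty ORFs, YDR261C-D differed between ard1 and swi4 by -0.96, YBL100W-A by -0.79, YBL100W-B by -0.76, YDR261W-B by -0.73 and YDR316W-B by -0.54. YBL100W-A also differed between ard1 and dot1, by -0.66. All 5 rest on shared probe sets. YFR012W-A, a dim ORF of 87 bp, differed between ard1 and swi4 by -0.70, and YBL029C-A between ard1 and swi4 by -0.48 and between ard1 and dot1 by -0.44. YIL014C-A differed by -0.89 between swi4 and dot1 and by -1.18 between ard1 and dot1, with changes against wt of 0.55 (dot1), -0.34 (swi4) and -0.63 (ard1).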

How the results depend on the processing

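The number of called suffixed ORFs depended mostly on how the spread was estimated and on single arrays. With only the 2 groups compared in the fit, limma called 0 in dot1 (17 at an unadjusted p under 0.05) in place of 4, 5 in swi4 in place of 14, 0 between swi4 and dot1 (15 unadjusted) in place of 1, and 36 between ard1 and swi4 in place of 16, and DOT1 itself kept its change of -3.31 at an adjusted p of 0.0839. With the dimmest 25% of genes left out, which removes 97 of the 142 ORFs, the counts were 2 in dot1, 5 in swi4, 10 in ard1, 0 between swi4 and dot1 (10 unadjusted) and 5 between ard1 and dot1; DOT1 and SWI4 are themselves left out there. Quantile normalization gave 0 between swi4 and dot1 (17 unadjusted) and an intensity trend in the variance prior gave 2. With shared probe sets left out 7 were called between ard1 and dot1 and 9 between ard1 and swi4, and the same counts, 7 and 9, were found with the ORFs over 800 bp left out, a setting chosen after seeing the data. Leaving out 1 of the 8 arrays gave 1 to 8 in dot1, 1 to 17 in swi4, 8 to 26 in ard1, 0 to 1 between swi4 and dot1, 2 to 14 between ard1 and dot1, and 1 to 21 between ard1 and swi4. SWI4 changed by -0.90 without swi4 replicate 1 (adjusted p = 0.118) and by -0.91 without swi4 replicate 2 (adjusted p = 0.0967), within -0.93 to -0.89 over the arrays left out. The change of YOR072W-B in dot1 ranged from -0.034 without wt replicate 2 to 1.87 without wt replicate 1, where it was called. The labels give the groups the same replicate numbers but do not say that these mark a shared day or culture, and 2 arrays a group are too few to establish pairing from the data. Deviations of same-numbered arrays correlated at 0.35 to 0.75 over all genes. A replicate block raised the calls among the suffixed ORFs to 16 in dot1, 27 in swi4, 35 in ard1 (all lower), 6 between swi4 and dot1, 26 between ard1 and dot1 and 30 between ard1 and swi4. The shares of all genes called in the other fits of this section are not given, so these counts cannot be set against them. Over 55 changes of named ORFs and their settings, 581 values kept their direction and side of the threshold, 211 were no longer past it, 1 was newly past it and 1 turned its direction; the cause of these shifts was not tested.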

Other observations

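YBR072C-A, an ORF of 162 bp next to the small heat shock protein gene HSP26 on the other strand, was looked up after its neighbour's values were seen. HSP26 rose 9.60-fold in dot1, 14.0-fold in swi4 and 10.4-fold in ard1 (limma adjusted p = 0.00208, 4.32e-04 and 9.97e-04), while YBR072C-A changed by 0.07, 0.05 and 0.01 and read between 4.41 and 4.52 on the 8 arrays, near the dimmest genes.

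Other pairs of a suffixed ORF and a neighbour outside the rule were also chosen after their values were seen. YPL119C-A fell by 0.91 and DBP1, a gene of a DEAD-box RNA helicase on the same strand, by 0.92 in ard1 (adjusted p = 0.00326). YOL155W-A fell by 1.00 in ard1, where HPF1, a cell wall mannoprotein gene, rose by 2.02 (adjusted p = 5.80e-04). YOR293C-A lies beside RPS10A, as YMR230W-A lies beside RPS10B, and both ORFs fell in ard1 while RPS10A changed by 0.08 and RPS10B by 0.06 there.

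Of the 5 ORFs with several probe sets, the unused ones differed most in level from the used ones in YLL066W-B, YOR072W-B and YLR157W-E. For YGR174W-A, which was called in ard1, the change there was -0.62 on the used probe set and -0.18 on the other. YLR157W-E averaged 9.01 in dot1, 8.90 in swi4, 8.52 in ard1 and 8.75 in wt on its used, shared probe set, and 4.13, 4.07, 4.09 and 4.14 on the other.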
